A study of Mus musculus with 14 samples.

Results

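Expression of 9 regulators of insulin, FoxO and mTOR signaling was read in hematopoietic stem cells (HSC) and whole bone marrow (WBM) of the mouse. The genes are the receptors *Igf1r* and *Insr*, the adaptor *Irs2*, the kinases *Akt1* and *Akt2*, the tuberous sclerosis genes *Tsc1* and *Tsc2*, and the transcription factors *Foxo1* and *Foxo3*. A probe set was taken where its only gene symbol in the probe annotation was a gene of this list, which gave 19 of 22626 probe sets. All 9 genes were found, of 12393 genes that the arrays name singly. Where a gene had several probe sets, it was counted on the brightest, by the average of the 8 wild-type (WT) HSC arrays, which is called its main probe set here.

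Insulin and IGF1 bind receptor kinases at the cell surface, whose adaptors recruit PI3-kinase and thereby activate AKT. AKT phosphorylates FoxO factors, which then leave the nucleus, and it phosphorylates the TSC1 and TSC2 complex, which otherwise holds the growth kinase mTORC1 in check. In mouse HSC, loss of FoxO factors or of *Tsc1* is known to impair quiescence and long-term repopulation. The pathway is governed largely by phosphorylation and protein location, which transcript levels do not measure.

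HSC were sorted from male C57Bl/6 mice as side population cells, which efflux Hoechst dye, and had to be lineage-negative, c-Kit+ and Sca-1+. The WT donors of HSC were aged 2 mo, 6 mo, 12 mo or 21 mo and those of WBM 2 mo, whereas p53+/m and p53+/- HSC came from mice of 12 mo. The p53+/m mice carry a truncated p53 allele beside a normal allele and are held to have more p53 activity than WT, whereas p53+/- mice have a single functional allele. The p53 mice had been back-crossed onto C57Bl/6 over several generations. Genotype and any remaining donor background cannot be told apart in these groups. Each of these 7 groups had 2 arrays, A and B. Each HSC array held RNA from a pool of 2 to 5 mice, amplified by 2 rounds of in vitro transcription, and the pooling of WBM is not given in the sources used here. The age field of the labels reads 2 mo throughout, so the ages used here are those of the sample titles. Values are the log2 expression values that the authors computed with GC-RMA, a method that corrects each probe's background by its GC content. Whether all 14 arrays were normalized together is not given in the sources used here.

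The sorted fraction was checked against marker lists. All 5 erythroid markers measured lay under log2 5 on every HSC array, and all 8 neutrophil markers were lower in HSC than in WBM at 2 mo. Of 8 stem cell markers, 4 were higher in HSC (*Procr*, *Hlf*, *Meis1* and *Tek*). *Abcg2*, which encodes the transporter that effluxes Hoechst, gave -1.40 in HSC against WBM and did not pass (adjusted p = 0.0644). *Kit* did not pass that test either, with means of 8.29 in HSC and 7.72 in WBM (adjusted p = 0.598). Between 42.7% and 43.6% of probe sets reached log2 5 on each array, a level taken here as clear signal. The 2 arrays of WT HSC at 12 mo differed most, by a mean of 0.824 on the log2 scale, against 0.237 to 0.421 in the other groups. The number of arrays limits the precision of every value below. The p-values set a change against the spread between arrays. HSC arrays held pools of mice, so the spread between single mice was not measured.

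Transcripts of 6 of the 9 genes gave clear signal on at least 2 arrays, and those of *Insr*, *Irs2* and *Tsc2* did not on any of the 14. *Foxo1* was the gene that passed with age and with p53 genotype, on its main probe set only, and *Foxo3* and *Akt1* were those that separated HSC from WBM. *Akt2*, *Tsc1* and *Igf1r* passed no test. Of the 19 probe sets, 9 reached log2 5 on at least 2 arrays.

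**Figure D1:**
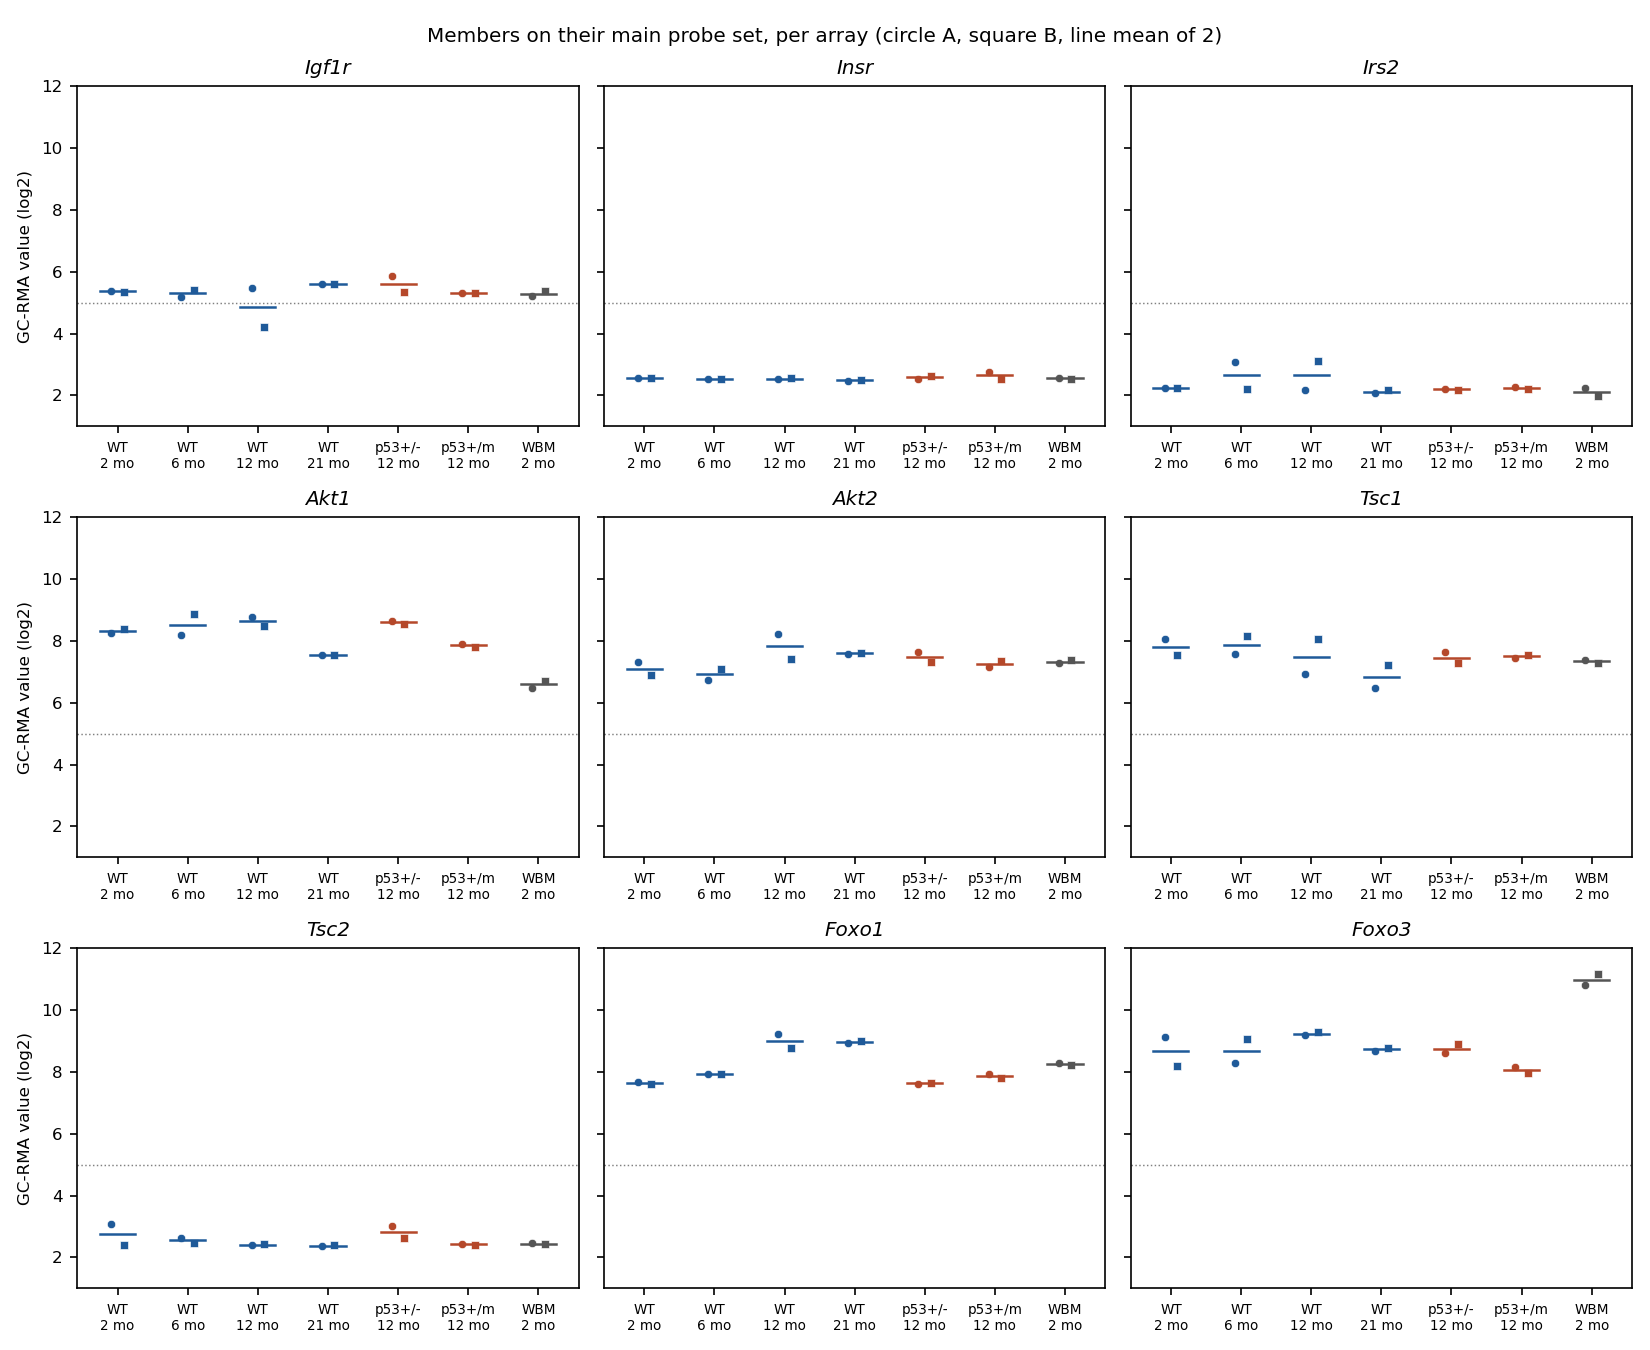
GC-RMA values (log2) of the 9 genes on their main probe sets for each array of the 7 groups, with circles for array A, squares for array B, a bar at the mean of 2 and a dotted line at log2 5. *Foxo3* stood near 11 in WBM and between 7.96 and 9.27 in HSC, *Foxo1* was highest in WT HSC at 12 and 21 mo, and *Insr*, *Irs2* and *Tsc2* stayed under the line.

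The RefSeq promoter table used here (GRCm38.p6) matched 8 of the 9 genes, with 12 starts in all. *Insr* was not matched. The 250 bases before the outermost start are shown for the 3 genes that passed a test, because these were the transcripts that differed between groups. They lie at chr3:52268087-52268336 on the plus strand (*Foxo1*), chr10:42276696-42276945 on the minus strand (*Foxo3*) and chr12:112674885-112675134 on the minus strand (*Akt1*), each written 5′ to 3′ along its gene. Capitals mark the FoxO core GTAAACA, the GC box GGGCGG, the CCAAT box CCAAT and the E-box CACGTG, on either strand.
Foxo1: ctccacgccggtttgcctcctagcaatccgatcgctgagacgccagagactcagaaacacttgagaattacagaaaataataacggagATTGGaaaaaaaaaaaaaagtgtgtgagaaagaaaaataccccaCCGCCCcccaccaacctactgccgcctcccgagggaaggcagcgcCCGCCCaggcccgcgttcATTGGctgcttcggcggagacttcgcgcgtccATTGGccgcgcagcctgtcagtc
Foxo3: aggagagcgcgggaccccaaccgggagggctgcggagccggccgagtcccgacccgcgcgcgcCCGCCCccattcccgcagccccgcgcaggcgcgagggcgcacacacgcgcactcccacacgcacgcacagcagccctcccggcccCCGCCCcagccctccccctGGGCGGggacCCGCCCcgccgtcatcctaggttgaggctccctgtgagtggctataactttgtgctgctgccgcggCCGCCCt
Akt1: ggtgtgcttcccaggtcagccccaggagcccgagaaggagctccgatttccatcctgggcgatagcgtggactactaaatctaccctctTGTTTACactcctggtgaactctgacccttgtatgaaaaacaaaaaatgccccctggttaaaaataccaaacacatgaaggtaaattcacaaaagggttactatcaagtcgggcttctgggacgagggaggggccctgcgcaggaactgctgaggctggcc

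The *Foxo1* window held 3 CCAAT boxes, 162, 55 and 23 bases before the start, and 2 GC boxes. The *Foxo3* window held 5 GC boxes and none of the other motifs. The *Akt1* window held the FoxO core, 161 bases before the start, and neither a GC box nor a CCAAT box. That core occurred in no other window of the list, including the second start of *Akt1*, which had 4 GC boxes. Among all 32851 windows of 250 bases, 3.17% held the FoxO core, 32.7% a GC box, 33.8% a CCAAT box and 6.02% an E-box. These are matches of letters only.

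*Igf1r* encodes the receptor for IGF1 and *Insr* that for insulin. The main probe set of *Igf1r* (1426565_at) read 5.36 and 5.36 at 2 mo, 5.19 and 5.40 at 6 mo, 5.46 and 4.22 at 12 mo, and 5.61 and 5.60 at 21 mo in WT HSC. It read 5.20 and 5.37 in WBM, 5.87 and 5.33 in p53+/- HSC and 5.31 and 5.30 in p53+/m HSC. Apart from array 12 mo B, all arrays lay within 5.19 to 5.87, and the ranges of most neighboring groups overlapped. Its second probe set stayed between 3.14 and 3.30. Both probe sets of *Insr* lay low, at 2.48 to 2.76 and at 1.65 to 1.71. *Irs2*, whose product links these receptors to PI3-kinase, lay at 1.98 to 3.12 with a median of 2.22, and only array 6 mo A (3.09) and array 12 mo B (3.12) of WT HSC exceeded 3. Such values cannot tell a low transcript level from none, and no change is given for *Insr* or *Irs2*.

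The AKT kinases carry the signal from PI3-kinase to FoxO and TSC. *Akt1* (1416657_at) read 8.25 and 8.38 at 2 mo, 8.17 and 8.87 at 6 mo, 8.75 and 8.49 at 12 mo, and 7.54 and 7.53 at 21 mo in WT HSC. In p53+/- HSC it read 8.64 and 8.55, in p53+/m HSC 7.91 and 7.79, and in WBM 6.48 and 6.70. The order of the *Akt1* levels thus ran from WBM through 21 mo WT and p53+/m to the other HSC groups, and only the upper 4 groups (2, 6 and 12 mo WT and p53+/-) overlapped with a neighbor. *Akt2* (1424480_s_at) read 7.31 and 6.88 at 2 mo, 6.72 and 7.10 at 6 mo, 8.22 and 7.41 at 12 mo, and 7.59 and 7.61 at 21 mo. It read 7.64 and 7.32 in p53+/- HSC, 7.14 and 7.33 in p53+/m HSC and 7.27 and 7.36 in WBM. Every group overlapped with its neighbor in the order of *Akt2* levels. The second probe sets of both genes lay flat below the level of clear signal, at 2.51 to 2.60 for *Akt1* and 4.50 to 4.65 for *Akt2*.

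TSC1 stabilizes TSC2, the part of the complex that switches off RHEB, the activator of mTORC1. *Tsc1* (1455252_at) read 8.06 and 7.53 at 2 mo, 7.57 and 8.14 at 6 mo, 6.92 and 8.06 at 12 mo, and 6.47 and 7.22 at 21 mo in WT HSC. It read 7.64 and 7.27 in p53+/- HSC, 7.44 and 7.55 in p53+/m HSC and 7.38 and 7.29 in WBM. The mean was lowest at 21 mo, and every group from WBM upward in the order overlapped with the next. Its second probe set stayed at 3.01 to 3.24. The probe set of *Tsc2* ranged from 2.37 to 3.09, so the partner of *Tsc1* was not measured above the level of clear signal.

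*Foxo1* and *Foxo3* encode the FoxO factors that AKT holds out of the nucleus. The main probe set of *Foxo1* (1416983_s_at, whose suffix marks probes that can match more than 1 transcript) read 7.67 and 7.60 at 2 mo, 7.94 and 7.92 at 6 mo, 9.22 and 8.77 at 12 mo, and 8.93 and 8.98 at 21 mo in WT HSC. It read 7.60 and 7.65 in p53+/- HSC, 7.93 and 7.80 in p53+/m HSC and 8.29 and 8.21 in WBM. The p53 mutants at 12 mo thus lay with the 2 and 6 mo WT arrays, below WBM, and the 12 and 21 mo WT arrays lay above WBM with no overlap. In this order p53+/- overlapped with 2 mo WT, p53+/m with 6 mo WT, and 21 mo with 12 mo WT.

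A second *Foxo1* probe set (1416982_at) followed another order in part. It read 7.22 and 6.96 at 2 mo, 6.99 and 7.89 at 6 mo, 8.57 and 7.57 at 12 mo, and 8.59 and 9.07 at 21 mo in WT HSC. In p53+/- HSC it read 7.54 and 8.11, in p53+/m HSC 8.12 and 8.18, and in WBM 8.24 and 7.92. Here 21 mo was again above 2 mo with no overlap, but 3 of the 4 arrays of the p53 mutants lay within the range of the 12 mo WT arrays, and p53+/- A lay just under it. Another (1416981_at) reached log2 5 on 4 arrays only, 12 mo A (6.45), both at 21 mo (5.51 and 5.57) and p53+/m A (5.31). The remaining probe set was flat at 2.51 to 2.62. Over the 14 arrays, the 3 probe sets with clear signal correlated with Pearson's r of 0.667 to 0.761, a description across arrays that share their groups.

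*Foxo3* (1434831_a_at) read 9.12 and 8.20 at 2 mo, 8.30 and 9.05 at 6 mo, 9.18 and 9.27 at 12 mo, and 8.67 and 8.78 at 21 mo in WT HSC. It read 8.60 and 8.89 in p53+/- HSC, 8.14 and 7.96 in p53+/m HSC, and 10.8 and 11.2 in WBM. WBM was above all HSC arrays and p53+/m was at the lower end, below every other HSC array. The second probe set (1434832_at) read 9.56 and 9.39 in WBM and 5.48 to 6.81 over the 12 HSC arrays, and its lowest array was p53+/m B. The probe sets had r = 0.951 over the 14 arrays, which include WBM. The remaining probe set stayed at 2.39 to 2.46.

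**Figure D2:**
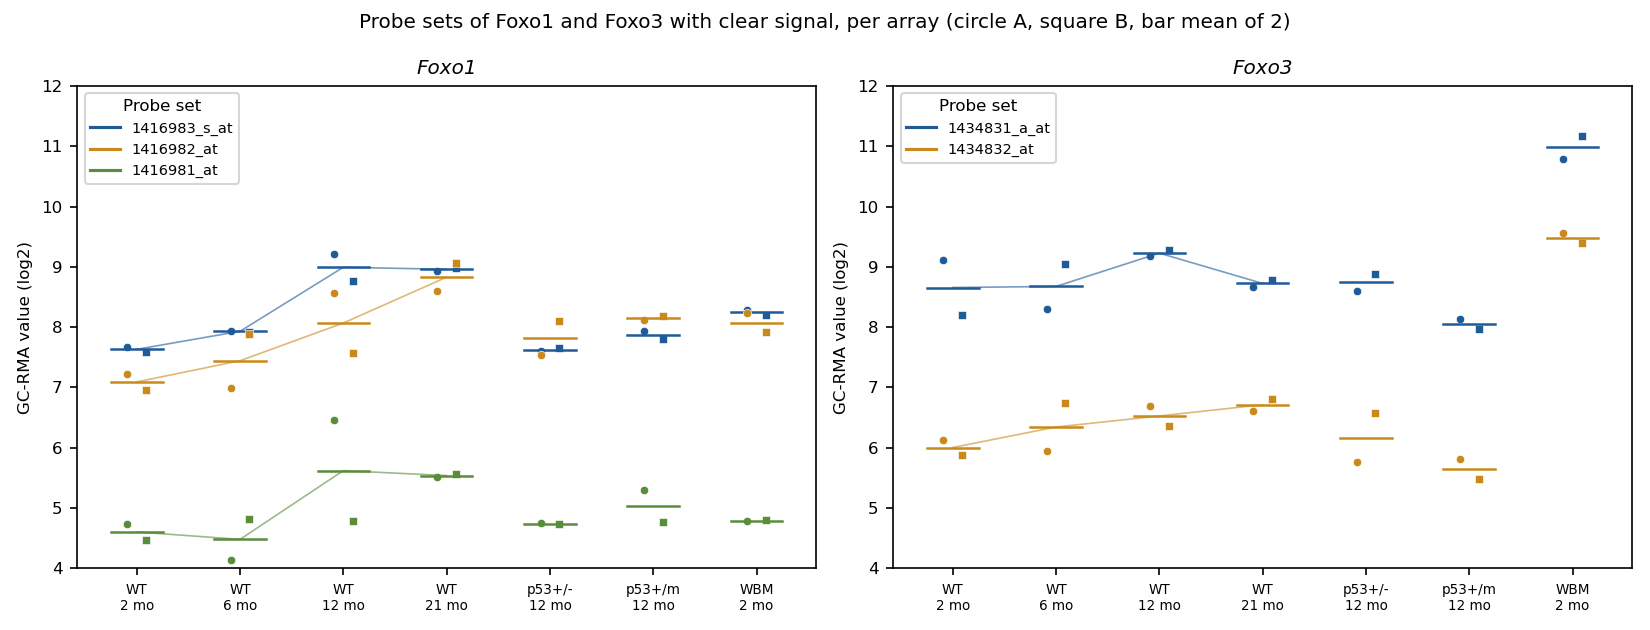
GC-RMA values (log2) of the probe sets of *Foxo1* and *Foxo3* with clear signal, per array and group, with circles for A, squares for B, short bars at the mean of 2 and thin lines joining the WT HSC means. All 3 *Foxo1* probe sets had higher means at 21 mo than at 2 mo, but only 1416983_s_at set both p53 mutants apart from WT at 12 mo, and both *Foxo3* probe sets stood highest in WBM.

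Change with age was read from a quadratic curve fitted through the 8 arrays of WT HSC, as its value at 21 mo less that at 2 mo. *Foxo1* rose, by 1.48 on the log2 scale (SE 0.22, 2.79-fold, adjusted p = 0.0338), with all arrays at 12 and 21 mo above all at 2 and 6 mo. It was the only gene of the 9 to pass a threshold of adjusted p at most 0.05 and 2-fold, and none fell, while 1.45% of all genes rose and 2.03% fell. The probe set 1416982_at gave a change of 1.76 (SE 0.40, adjusted p = 0.0761) and 1416981_at 1.18 (SE 0.58, adjusted p = 0.334), neither past the threshold. The *Foxo1* call was lost whenever 1 of the 6 arrays at 2, 6 or 21 mo was left out (adjusted p 0.0619 to 0.142, change 1.42 to 1.59) and held without either or both arrays at 12 mo (adjusted p 0.00339 to 0.0274). With the replicate letter as a block the adjusted p was 0.0611.

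The other genes with clear signal did not pass the age test. *Akt1* gave -0.74 (SE 0.21, 95% interval -1.26 to -0.21, adjusted p = 0.123), with both arrays at 21 mo below all others of WT HSC. *Tsc1* gave -1.0 (interval -2.08 to 0.08, adjusted p = 0.274) and *Akt2* 0.72 (interval -0.21 to 1.64). *Foxo3* gave 0.20 (interval -0.70 to 1.09; second probe set 0.68, adjusted p = 0.220) and *Igf1r* 0.13 (interval -0.79 to 1.05), so a 2-fold change lies inside each of these intervals. A moderated F test for any difference among the 4 ages called 0 of the 9 genes at adjusted p at most 0.05 in limma, against 0.331% of all genes. *Foxo1* was nearest, at adjusted p = 0.0811, and *Akt1* followed at 0.274. At unadjusted p at most 0.05 these 2 passed, against 15.0% of all genes.

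Other measures moved with the *Foxo1* rise. The 5′ control probe set for 18S ribosomal RNA read 4.66 on 12 mo A and 4.84 and 5.44 at 21 mo, against 8.28 to 11.2 on the other 5 WT HSC arrays. Array 12 mo B had a high *Foxo1* value with a 5′ 18S value of 9.68, and p53+/m A had 7.93 for *Foxo1* with a 5′ value of 5.71. The 3′ control for 18S read 6.31 on 12 mo A and 6.23 and 6.64 at 21 mo. It read 7.40 to 8.87 on the other 5 WT HSC arrays and 8.28 on p53+/m A. The remaining 18S control read 4.50 on 12 mo A and 4.70 and 4.98 at 21 mo. It read 5.46 on 6 mo B, where *Foxo1* was 7.92, 6.62 on p53+/m A, and 9.39 to 10.9 on the other WT HSC arrays. Of the neutrophil markers, 2 of 8 rose with age, and their summed level was log2 9.25 to 10.3 at 2 mo and 9.79 to 11.2 at 21 mo, far under the 17.0 to 17.1 of WBM. Of 5 monocyte markers 2 rose (summed level 10.9 at 2 mo and 11.7 to 11.8 at 21 mo), and 1 of 6 B lineage markers fell. Of 8 stem cell markers 1 rose, and their summed level was 13.6 to 13.7 at 2 mo and 14.6 to 14.9 at 21 mo. *Foxo1* in WBM, a mixture of cell types, read 8.29 and 8.21, above the arrays at 2 mo and below those at 21 mo. The part of the 18S signal and of these cell types in the *Foxo1* result was not tested.

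Among 123 measured genes of 149 in 8 lists of the same pathway, 4 rose and 1 fell with age, or 4.07%. Over all genes, 1.45% rose and 2.03% fell. *Ywhaz*, a 14-3-3 protein that binds phosphorylated FoxO, rose by 1.76 (SE 0.31, adjusted p = 0.0445) from a mean of 11.4 at 2 mo to 13.1 at 21 mo. *Grb10*, an adaptor that dampens insulin and IGF1 receptor signaling, rose by 1.32 (SE 0.22, adjusted p = 0.0384), but the mean of its probe sets gave -0.44. *Rragc* and *Rraga*, Rag GTPases that bring mTORC1 to the lysosome, also rose, *Rragc* by 1.36 (SE 0.15, adjusted p = 0.0210) and *Rraga* from a mean of 3.61, under the level of clear signal, to 5.08 (adjusted p = 0.0372). *Pik3cg*, a catalytic subunit of PI3-kinase, fell by 1.48 (SE 0.22, adjusted p = 0.0334), and it was also the only gene of the lists past the F test (adjusted p = 0.0374). The calls among the 123 were lost once 2 mo A, or 2 mo B, or 21 mo B was left out, and more genes passed without 12 mo A or 12 mo B. Calls over all genes fell and rose in the same settings. Of 29 measured FoxO target genes, such as *Cdkn1a*, *Sesn1* and *Klf2*, none passed the age test in limma, and 6 higher and 1 lower did at unadjusted p at most 0.05 with 2-fold, where 14.4% of all genes passed. Their median change was 0.21, against -0.02 over all genes.

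HSC were set against WBM at 2 mo to see which genes differ between the stem cells and the whole marrow. *Akt1* was higher in HSC, by 1.72 on the log2 scale (SE 0.23, 3.30-fold, adjusted p = 0.00332), with no overlap of the arrays. *Foxo3* was lower, by -2.32 (SE 0.37, 5.0-fold, adjusted p = 0.00645), and its second probe set by -3.47 (SE 0.28, 11.1-fold, adjusted p = 0.000464). These were 1 gene higher and 1 lower of the 9, where 13.3% of all genes were higher and 10.5% lower. *Foxo1* was lower by -0.61 (SE 0.14, 1.53-fold, adjusted p = 0.0243), short of 2-fold. The intervals of *Igf1r* (-0.85 to 0.99) and *Akt2* (-0.94 to 0.50) lay within 2-fold, and that of *Tsc1* (-0.67 to 1.59) reached past it. In these mixed samples, fewer cells of a type that carries a transcript and less of it per cell cannot be told apart. All 5 erythroid markers, all 8 neutrophil markers and 4 of 5 monocyte markers were lower in HSC, and 1 monocyte marker was higher. The part of these cell types in the *Foxo3* difference was not tested. The 5′ 18S control read 10.9 and 10.9 in HSC at 2 mo and 5.32 and 5.14 in WBM. The part of the 18S signal in these differences was not tested either.

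Both calls held whichever of the 4 arrays of 2 mo was left out. For *Akt1* the mean of its probe sets, which brings in the flat second probe set, gave 0.85 and lost the 2-fold criterion.

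Of the same 123 pathway genes, 24 were higher and 13 lower in HSC than in WBM, or 30.1%. Over all genes, 13.3% were higher and 10.5% lower. The median difference of the 123 was -0.02 (all genes -0.01). Of 12 adaptors, 4 were higher, among them *Grb10* (3.43, SE 0.29), and *Irs1* passed as lower but stayed under log2 5 in both, so no difference is given for it. Of 14 genes of PI3-kinase and AKT, *Trib3*, an inhibitor that binds AKT, was higher, reading 9.36 in HSC and 2.93 in WBM. *Inppl1*, a lipid phosphatase, was higher by 2.44, and *Sgk3* was lower (-1.80). *Gsk3b* passed as lower with both means under log2 5. Upstream of mTOR, *Stk11*, the kinase that activates AMPK, was higher by 2.23 (SE 0.20), *Rhebl1* by 3.05 and *Nprl2* by 1.64, whereas *Rragc* (-1.13) and *Rraga* (3.61 in HSC and 6.08 in WBM) were lower. Of 8 genes of the mTOR complexes, the inhibitor *Deptor* (5.35 in HSC and 2.93 in WBM) and the assembly factor *Telo2* (1.25) were higher. Of 16 mTOR outputs, 5 were higher and none lower, among them *Eif4ebp1*, a translation repressor, by 2.93 (SE 0.30). *Srebf1* read 9.17 in HSC and 4.23 in WBM, and *Ppargc1a* read 7.25 and 3.08. The ligand *Igf1* was lower, reading 3.33 in HSC and 6.51 in WBM. Where a mean lay under log2 5, as for *Trib3* and *Igf1*, the means are given in place of a difference, since the lower of them cannot be told from no transcript.

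The FoxO target genes were divided between HSC and WBM, with 7 of 29 higher and 6 lower in HSC, where 13.3% and 10.5% of all genes were. Among those higher were *Gadd45b* (8.76 in HSC and 3.41 in WBM), *Cdkn1a* (4.45, SE 0.46), which encodes the cell cycle inhibitor p21, *Ccnd2* (4.42, SE 0.48) and the autophagy gene *Gabarapl1* (2.99). Among those lower were *Il7r* (3.07 in HSC and 11.2 in WBM), *Gadd45a* (-3.60, SE 0.54), *Klf2* (4.0 in HSC and 7.22 in WBM) and *Cat*, which encodes catalase (-2.24, SE 0.14). *Il7r* is a receptor of lymphoid cells, and 3 of 6 B lineage markers were lower in HSC as well. The part of cell types in these differences was not tested. Fewer of the 123 pathway genes passed without 2 mo HSC B or without WBM B, and fewer of all genes did too.

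**Figure D3:**
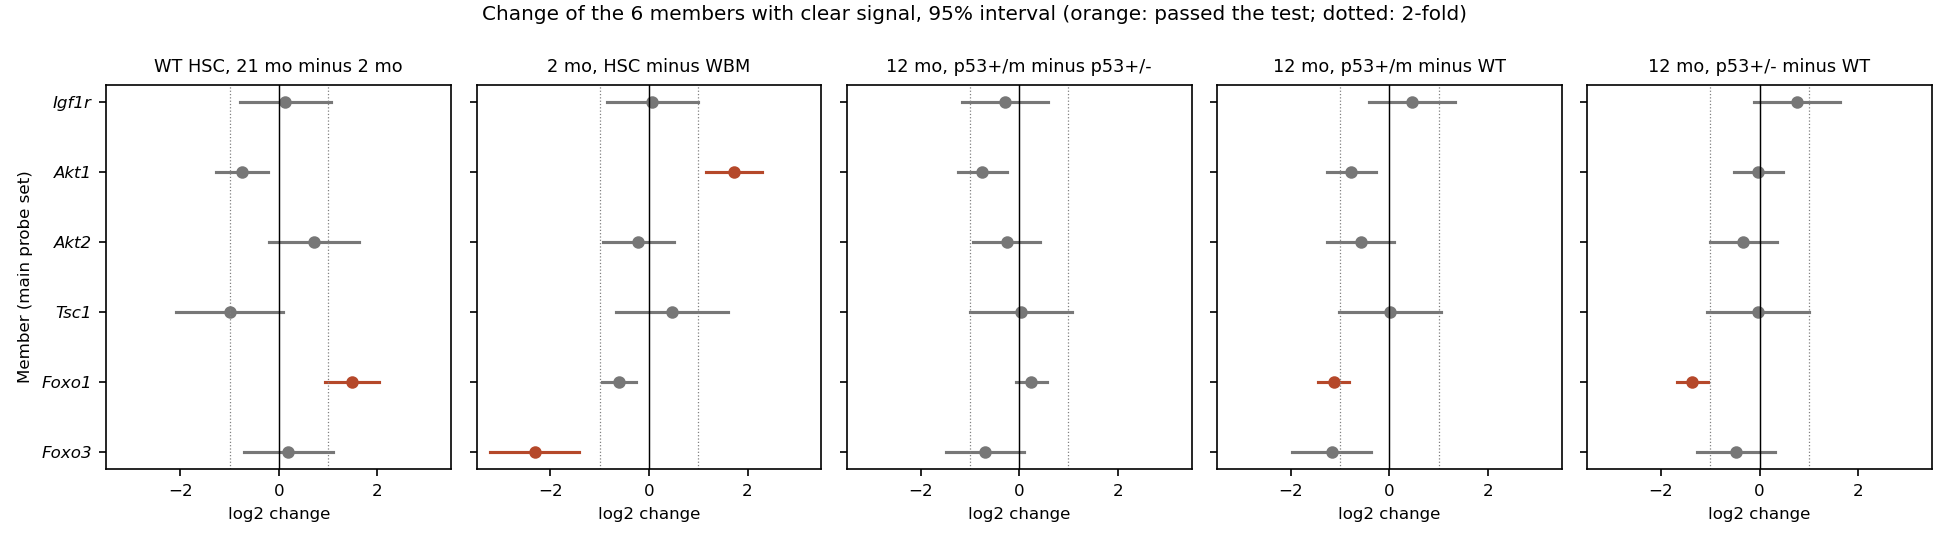
Log2 change of the 6 genes with clear signal in each comparison, on their main probe sets, as points with 95% intervals, in orange where the test was passed, with dotted lines at 2-fold. *Foxo1* passed with age and in both comparisons of a p53 mutant with WT, *Akt1* and *Foxo3* passed between HSC and WBM, and no gene passed between the p53 mutants.

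The p53 genotypes were compared at 12 mo, with the spread taken over the 12 HSC arrays. *Foxo1* was lower than in WT in both mutants. The difference was -1.12 in p53+/m (SE 0.13, 2.18-fold, adjusted p = 0.0234) and -1.37 in p53+/- (SE 0.13, 2.58-fold, adjusted p = 0.0219). It was the only gene of the 9 to pass in either comparison, and none was higher. Among all genes, 0.307% were lower and 0.137% higher in p53+/m, and 0.113% lower and 0.0807% higher in p53+/-. These comparisons share the WT arrays, 12 mo A and B, which differ most from each other. *Foxo1* read 9.22 and 8.77 on them, and each was above all 4 mutant arrays. The 5′ 18S control read 4.66 and 9.68 on these WT arrays, 5.71 and 7.18 in p53+/m and 8.92 and 7.96 in p53+/-. The 3′ control read 6.31 and 8.64 in WT, 8.28 and 8.73 in p53+/m and 8.47 and 7.51 in p53+/-. The part of the 18S signal in the result was not tested. The summed level of the neutrophil markers was log2 8.12 to 10.4 in WT, 8.15 to 9.63 in p53+/m and 6.55 to 6.62 in p53+/-. That of the megakaryocyte markers was 9.57 to 9.72, 8.05 to 8.66 and 7.29 to 8.25, higher in WT than in either mutant with no overlap. The monocyte markers were instead lower in WT with no overlap. They read 10.7 to 10.996 in WT, 11.75 to 11.8 in p53+/m and 11.013 to 11.6 in p53+/-. The T and NK markers read 6.51 to 8.02 in WT, 5.86 to 5.88 in p53+/m and 5.82 to 6.88 in p53+/-. None of the 5 megakaryocyte or 5 monocyte markers passed in either comparison in limma. At unadjusted p with 2-fold, 1 and 2 megakaryocyte markers were lower in p53+/m and p53+/-. The part of these cell types in the result was not tested. The p53 transcript itself was not analysed here.

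Only the main *Foxo1* probe set showed this difference past the threshold. On 1416982_at, p53+/m differed from WT by 0.08 (interval -0.92 to 1.08) and p53+/- by -0.24 (interval -1.24 to 0.76). On 1416981_at the differences were -0.58 and -0.88, with adjusted p of 0.878 and 0.775. Without p53+/m A or B the p53+/m call was lost (adjusted p = 0.0535 and 0.0706), and without WT 12 mo A the change was -0.90, under 2-fold (adjusted p = 0.00356). The p53+/- call held whichever of the 4 arrays compared was left out (adjusted p 0.000598 to 0.0435). A fit to the 6 arrays of 12 mo alone called no gene of the array in any of these comparisons.

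**Figure D4:**
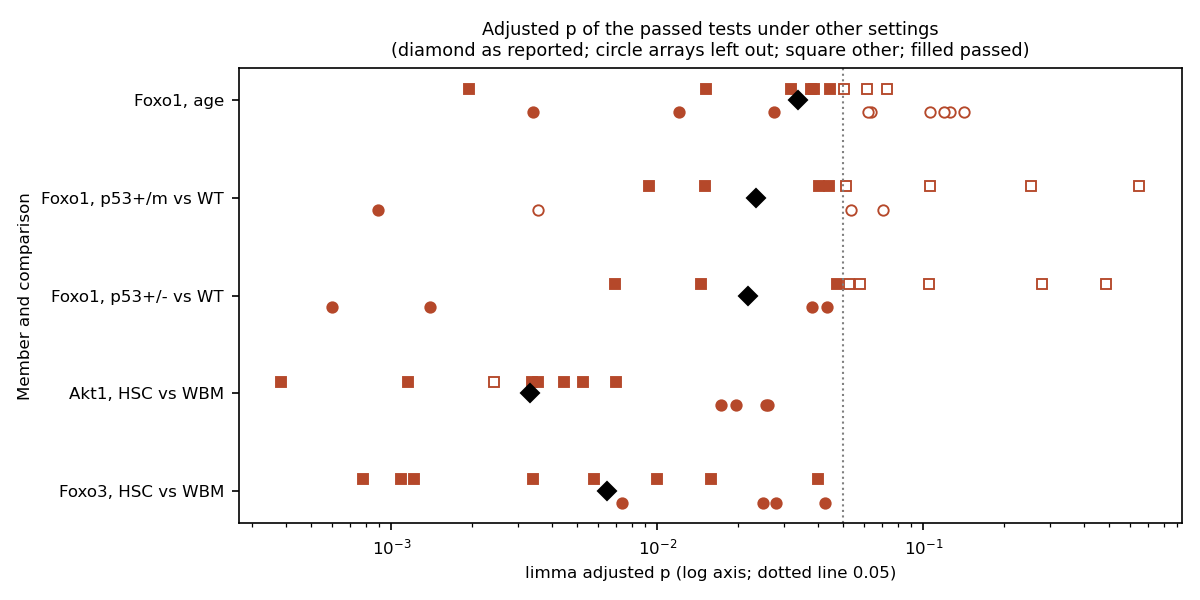
Adjusted p from limma (log axis) of the 5 tests that passed on main probe sets, as reported (diamonds), with arrays left out (circles) and under other settings (squares), filled where the adjusted p and 2-fold criteria were both met. The *Akt1* and *Foxo3* differences between HSC and WBM stayed under 0.05 in all settings, whereas the 3 *Foxo1* tests fell on both sides.

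*Foxo3* was also lower in p53+/m than in WT on its main probe set, by -1.17 (SE 0.34, interval -1.97 to -0.38), but with an adjusted p of 0.230 it did not pass. Its second probe set gave -0.88 (adjusted p = 0.425). *Akt1* gave -0.77 (SE 0.21, adjusted p = 0.195) in p53+/m and -0.02 (interval -0.52 to 0.47) in p53+/-. *Akt2* gave -0.58 and -0.33, and *Igf1r* 0.46 and 0.76, in p53+/m and p53+/- respectively, none past the threshold. Without WT 12 mo A, which leaves array B with its low *Igf1r* value of 4.22, *Igf1r* passed as higher in both mutants. *Tsc1* differed by 0.01 (interval -1.03 to 1.04) and -0.04 (interval -1.07 to 1.0).

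Between p53+/m and p53+/- HSC, the extremes of p53 activity in the study, 0 of the 9 genes passed in limma, against 0.0888% of all genes higher and 0.129% lower in p53+/m. None passed at unadjusted p at most 0.05 with 2-fold either, against 3.57% of all genes. *Akt1* came closest, at -0.75 (SE 0.21, interval -1.24 to -0.26, adjusted p = 0.254), with both p53+/m arrays (7.91 and 7.79) below both p53+/- arrays (8.64 and 8.55). *Foxo3* gave -0.69 (interval -1.49 to 0.11) and *Foxo1* 0.25 (interval -0.07 to 0.56), which lies within 2-fold.

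Of the 123 pathway genes, 1 passed between p53+/m and p53+/-, or 0.813%, where 0.0888% of all genes were higher and 0.129% lower. Between p53+/m and WT 1 passed as well, where 0.137% of all genes were higher and 0.307% lower. *Prkab1*, a subunit of AMPK, was higher in p53+/m than in p53+/- by 2.44 (SE 0.30, adjusted p = 0.0349), reading 9.53 and 7.09. *Gab1*, an adaptor, was lower in p53+/m than in WT by -1.21 (SE 0.18, adjusted p = 0.0478). Each was the only gene of the 123 past the threshold in its comparison, and *Prkab1* was not called when any of the 4 arrays compared was left out (adjusted p 0.0699 to 0.0909), nor *Gab1* without p53+/m A or p53+/m B (adjusted p 0.142 and 0.116). No gene passed between p53+/- and WT in limma, and 8 of 123 did at unadjusted p with 2-fold, where 3.10% of all genes passed. Without WT 12 mo A or B, more of the 123 passed between either mutant and WT, and more of all genes did too. Of the 29 FoxO target genes none passed in any of the comparisons of genotypes. Their median difference from WT was -0.09 in p53+/m and -0.10 in p53+/-, against -0.01 and -0.02 over all genes, and at unadjusted p with 2-fold 6 and 3 of the 29 passed, against 4.48% and 3.10% of all genes.

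The genes whose values followed each regulator most closely over the 14 arrays were sought among 6787 others with clear signal. For *Foxo1* these were *Pnpla8* (Pearson's r = 0.903), *Ddr1* (0.902) and *Grsf1* (0.880). For *Foxo3* they were *Marcks* (0.967), *Ezh2* (0.964) and *Nfe2* (0.963), and for *Akt1* *Chmp7* (0.966), *Mfsd10* (0.965) and *Ehmt2* (0.946). *Akt2* was followed by *Pip5k1c* (0.924), *Zyx* (0.895) and *Hk1* (0.889), *Tsc1* by *Arhgap17* (0.912), *Macf1* (0.891) and *Ergic2* (0.862), and *Igf1r* by *Slc25a11* (0.925), *Saal1* (0.905) and *Mrps23* (0.898). The arrays share groups, and r was not computed without WBM or any other group. For *Igf1r*, WT 12 mo B (4.22) lay apart from all other arrays (5.19 or above), and the part of that array in r was not tested. The values describe these arrays and carry no test.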

How the data were processed

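RNA of HSC and WBM was measured on Affymetrix MOE430A arrays, 14 in 7 groups of 2. Images were processed by the authors in MAS 5.0, and the deposited values are GC-RMA expression on the log2 scale. No version of GCRMA is given in the sources used here, nor is it stated that all arrays entered a common normalization. Values were used as deposited, without a filter on low values, after 64 control probe sets were removed. Probe sets were named by the platform annotation: 20380 carry 1 symbol, 691 several and 1555 none.

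Linear models were fitted in R 4.3.3 with limma 3.58.1, by lmFit followed by eBayes, and p-values were adjusted over 22626 probe sets by the Benjamini-Hochberg method. A gene passed at adjusted p at most 0.05 and 2-fold, and in the F test at adjusted p alone. Age used the 8 WT HSC arrays, HSC against WBM the 10 WT arrays, and genotypes the 12 HSC arrays. Errors are standard errors of the model, and intervals are 95%. The procedure was tested on simulated data. All 9 genes were described on every probe set; of the pathway lists, those past the threshold were named, at most 4 per direction, list and comparison, and the 3 most alike genes per regulator. The genes, the pathway lists and the marker lists (stem cell, erythroid, neutrophil, monocyte, B lineage, T and NK, megakaryocyte, endothelial and stromal) were chosen with earlier results of these data known. In T and NK 0 of 5 markers differed between HSC and WBM, in megakaryocyte 1 of 5, and in endothelial and stromal 2 of 6 were lower in HSC. Alternatives left out each array and varied the block, normalization, filter, probe set rule, threshold, variance and arrays in the model. Arrays carry no stated depth. Promoter sequences are from RefSeq, GRCm38.p6.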

Additional observations from a re-analysis of the deposited data

How the results depend on the processing

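The *Akt1* and *Foxo3* differences between HSC and WBM held in every setting run, except that the mean of the probe sets left 1 gene (*Foxo3*). The *Foxo1* calls were less stable, and the causes were not tested. For age, 0 genes passed with the replicate block, with the mean of the probe sets and with a straight line in age, and 0 to 1 with arrays left out in turn. For p53+/m against WT, 0 passed with the filter on log2 5, the mean of the probe sets, the variance trend, or only the 6 arrays of 12 mo, 0 to 1 with arrays left out, and 2 (*Foxo1* and *Foxo3*) at unadjusted p with 2-fold. Without WT 12 mo A the 1 gene was *Igf1r* (1.08, adjusted p = 0.0420), and *Foxo1*, at -0.90, was not called. For p53+/- against WT, 0 passed with array medians set equal, the filter, the mean of the probe sets, the variance trend, or the 6 arrays, and 1 to 2 with arrays left out. In the F test over the ages, 0 to 2 passed with arrays left out, the latter (*Igf1r* and *Foxo1*) without 12 mo A.

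Array letters showed no consistent pairing: deviations from group means correlated at -0.31 to 0.18 over 21 pairs of groups, and 2 exceeded 0.1. A negative value joins A of a group with B of another, so batches that cross the letters are not excluded. The replicate block left 0 genes for age, 0 in the F test, 2 for HSC against WBM, 0 between the mutants, and 1 each for p53+/m and p53+/- against WT. Over all genes, calls for age numbered 431 as reported, 186 with the block and 15 to 1341 with arrays left out, and 1288 with the filter. Over all settings they numbered 2 to 1420 in the F test (41 as reported), 0 to 442 between the mutants (27), 0 to 569 for p53+/m against WT (55) and 0 to 577 for p53+/- against WT (24).

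Changes of sign touched small changes that did not pass as reported, apart from *Grb10* with age (-0.44 by the mean of its probe sets). With arrays left out, *Foxo3* with age ran from -0.068 to 0.60 and *Igf1r* between HSC and WBM from -0.016 to 0.15. Between the mutants *Tsc1* ran from -0.14 to 0.23. Against WT, p53+/m gave -0.56 to 0.57 for *Tsc1* and -0.16 to 1.08 for *Igf1r*. In p53+/- the ranges were -0.15 to 0.11 for *Akt1*, -0.74 to 0.074 for *Akt2* and -0.61 to 0.53 for *Tsc1*. With array medians set equal, *Tsc1* gave -0.014 between the mutants and 0.019 in p53+/- against WT, where *Akt1* gave 0.032, and the mean of the probe sets gave 0.014 for *Tsc1*.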
